A study of Mus musculus with 8 samples.

Results

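The genes described here encode the machinery of oxidative phosphorylation. They were taken from the count table by name: nuclear genes whose symbols begin with Nduf (followed by a, b, c, s or v and a number), Uqcr, Cox4 to Cox8 (followed by a, b or c) or Atp5, the 4 genes Sdha, Sdhb, Sdhc and Sdhd, and all genes of the mitochondrial genome, whose symbols begin with mt-. This rule found 97 of the 16397 genes of the table, of which 77 were nuclear and 20 mitochondrial. Assigned to complexes by symbol alone, the nuclear genes comprised 37 of complex I, 4 of complex II, 8 of complex III, 12 of complex IV and 16 of complex V. The mitochondrial genes comprised 8 mRNAs, 11 tRNAs and the ribosomal RNA mt-Rnr1. The letters of the rule do not reach Cox4i1 and Cox4i2, which are therefore given apart, and mt-Rnr2, mt-Co2, mt-Co3, mt-Atp6, mt-Atp8 and mt-Nd4l were not analysed here. Total RNA had been sequenced from E15.5 hippocampi of C57Bl/6J mice, 4 from offspring with intrauterine growth restriction (IUGR) and 4 from sham controls. In the IUGR group the pregnant dam carried a micro-osmotic pump with U-46619, a thromboxane A2 analog that raises maternal blood pressure, from E12.5, and the dam of a sham control carried a pump with vehicle from the same day. The treatment was thus given to the dam, and the embryos carried no engineered allele. All 4 IUGR libraries have the name prefix T1 and the sham libraries have S1 or S3; what a prefix stands for is not stated, nor is it stated that the samples of a group came from separate dams, so p values here measure only the spread between these samples.

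Oxidative phosphorylation takes place in the inner mitochondrial membrane. Complex I (NADH dehydrogenase) and complex II (succinate dehydrogenase) pass electrons to ubiquinone, complex III passes them on to cytochrome c, and complex IV (cytochrome c oxidase) passes them to oxygen, while complexes I, III and IV pump the protons that complex V (ATP synthase) uses to make ATP. Complex II is built from nuclear genes alone, whereas the others join nuclear subunits with subunits made from the mitochondrial genome. In the developing brain, neural stem cells rely heavily on glycolysis and their neuronal progeny shift toward respiration, and oxygen is a known regulator of a few subunit isoforms.

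Total counts were between 11212632 and 16672463 per library and overlapped between the groups. The libraries differed in how much mitochondrial ribosomal RNA remained after its removal: mt-Rnr1 took between 0.0176% and 2.53% of the counts. It was at 13343 to 26524 CPM (counts per 1000000 counts outside mt-Rnr1, scaled by edgeR's TMM factors) in T1-3, T1-4, S1-6 and S3-4 and at 172 to 882 CPM in T1-1, T1-5, S1-4 and S3-1, so that 2 libraries of each group lay on either side. Lists of cell type markers were also compared, and of the 8 lists only choroid plexus held called genes. Over all genes tested, 1.36% were called and 11.2% had an unadjusted p under 0.05. Of 14 tested markers of the choroid plexus, an epithelium attached to the hippocampal field, 14 had a fitted value lower in IUGR (median log2 fold change -3.06), 13 had an unadjusted p under 0.05, the groups did not overlap for 11 (against 4.41% of all genes in that direction), and Cldn2 and Folr1 were called. The mean log2 CPM of these markers was 0.23 to 4.39 in the IUGR libraries and 6.13 to 6.72 in the sham libraries. Of 12 neuron markers, 11 had a fitted value higher in IUGR (median 0.49), none was called, and 7 had an unadjusted p under 0.05. The groups did not overlap for 5 of the 12, all higher in IUGR (against 2.63% of all genes in that direction). The mean log2 CPM of the 12 markers was 7.31 to 7.86 in IUGR and 6.52 to 7.15 in sham libraries. Of 11 radial glia markers, none was called or had an unadjusted p under 0.05, and the median was -0.08. All 10 tested muscle markers were fitted higher in IUGR with a median of 0.74 and none called, 3 at an unadjusted p under 0.05, and their mean log2 CPM was -0.31 to 2.19 in IUGR and 0.33 to 0.80 in sham libraries. No gene was called among 7 meninges markers (7 fitted higher, median 1.15), 10 erythroid markers (10 higher, 0.52), 7 endothelium markers (5 higher, 0.54; 1 at an unadjusted p under 0.05) or 8 markers of the medial pallium, the hippocampal field (7 fitted lower, -0.34; 1 at an unadjusted p under 0.05). Markers of neurons and radial glia were abundant in every library, with mean log2 CPM of at least 6.52 and 8.10. In such bulk RNA, fewer cells of a type and less RNA per cell cannot be told apart, and the part of these markers in the values below was not tested except where stated.

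Among the nuclear genes, the β and α subunits of the catalytic head of ATP synthase had the highest levels. Atp5b was at 279 CPM per kb of annotated exon in the sham controls and Atp5a1 at 265, followed by Cox6b1 at 258, Ndufc2 at 191 and Cox7a2 at 185. Over both groups, and leaving aside minor isoforms, the median level was 97.6 CPM per kb for 8 genes of complex III, 82.3 for 10 of complex IV, 52.9 for 4 of complex II, 51.9 for 15 of complex V and 43.8 for 36 of complex I. Within complex V, the 5 genes of the F1 head had a median of 143 CPM per kb and the 8 tested genes of the membrane part and peripheral stalk 47.1. Of the mitochondrial mRNAs, 3 stood above every nuclear member over both groups: mt-Co1, the catalytic subunit of complex IV, at 3003 CPM per kb, mt-Nd1 at 1616 and mt-Cytb at 1249. The other 5 lay below Atp5b and Atp5a1, with mt-Nd4 at 210.5 CPM per kb, mt-Nd2 at 204, mt-Nd5 at 151, mt-Nd6 at 82.5 and mt-Nd3 at 1.77. Annotated exon lengths include every alternative transcript, which lowers the value of a gene with a long minor transcript, and these levels are a description. Nuclear copies of mt-Co1, mt-Nd2, mt-Nd3, mt-Nd4 and mt-Nd5, described below, leave the levels of these mRNAs and their order uncertain.

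None of the 90 members tested for a difference between IUGR and sham control hippocampi reached an adjusted p of 0.05 or less, the threshold for a call (quasi-likelihood test of edgeR, with p values adjusted after Benjamini and Hochberg across 14961 genes) in either direction, against a background of 1.36% of all genes (0.14% higher and 1.22% lower in IUGR). An unadjusted p under 0.05 was found for 3 members, namely 2 nuclear genes and 1 tRNA that were all fitted lower, and for 11.2% of all genes (5.21% higher and 6% lower). DESeq2 and limma-voom called no member either, against 3.91% and 2.18% of all genes, with 2 and 1 members at an unadjusted p under 0.05 (11.5% and 11% of all genes). In no member did the CPM of the 4 IUGR libraries lie wholly above or below that of the 4 sham libraries, which it did for 7.04% of all genes (2.63% above and 4.41% below). For the 76 nuclear members tested the median log2 fold change was -0.03, 44 being fitted lower in IUGR and 32 higher (57.9% lower), where the median over all genes was 0.01 and 48.4% were fitted lower.

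The intervals show how large a difference these libraries leave room for. The 95% interval of the log2 fold change lay within -1 and 1, that is within a doubling or halving, for 73 of the 76 nuclear members (96.1%; 75.8% of all genes), and within -0.5 and 0.5 for 46 (60.5%; 37.2% of all genes). The other 3 were Cox6b2, Cox7a1 and Ndufa4l2, each a minor isoform with few counts. Outside these 3, the fitted log2 fold changes of 73 genes ran from -0.23 for Ndufb4 to 0.15 for Ndufs5, and no interval went below -0.82 or above 0.72. Too few counts for the test were held by 4 tRNAs (mt-Te, mt-Tg, mt-Th and mt-Tl2) and by the nuclear gene Atp5g2 and the mRNA mt-Nd3, while mt-Rnr1 was kept out of the test because the removal of ribosomal RNA sets its level.

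**Figure D1:**
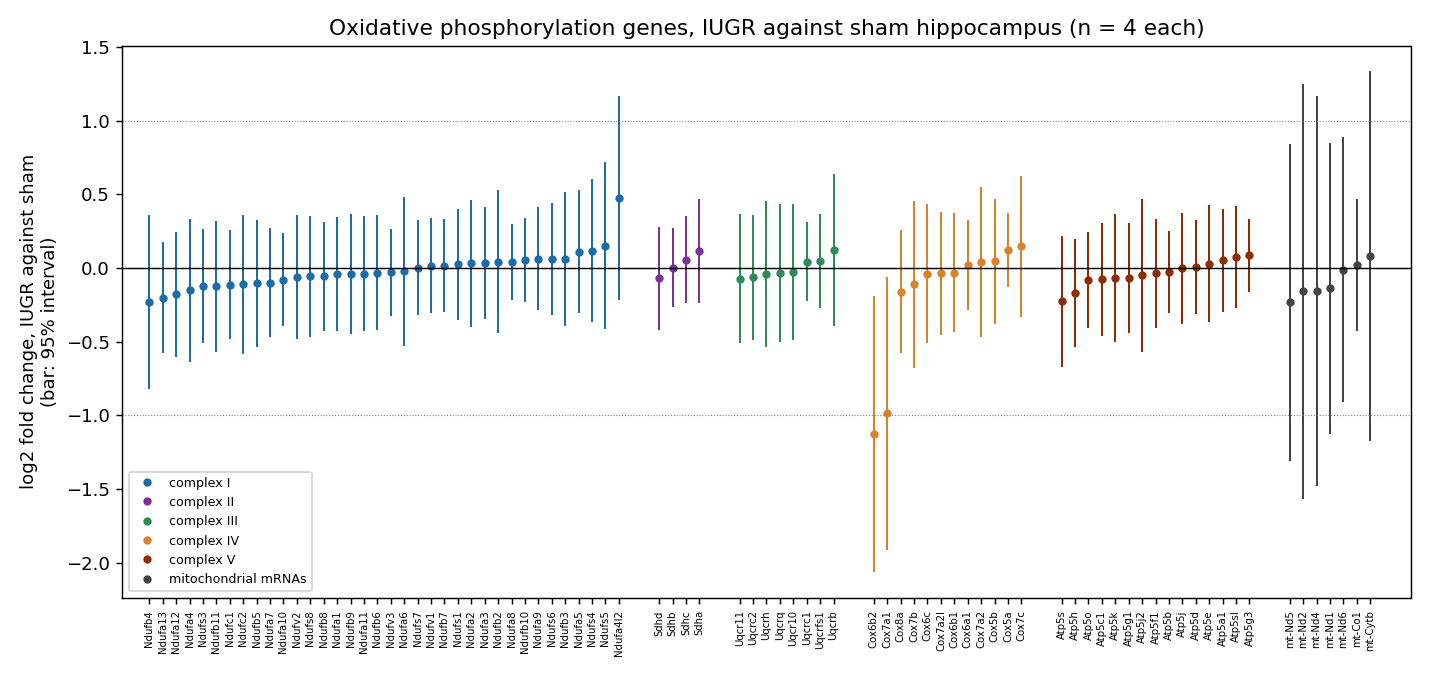
Fitted log2 fold change of IUGR against sham control hippocampi (vertical axis) for nuclear members, ordered by value within each complex, and 7 mitochondrial mRNAs; points are edgeR estimates, bars 95% intervals and dotted lines -1 and 1. Nuclear intervals other than those of Cox6b2, Cox7a1 and Ndufa4l2 stay within the dotted lines, whereas 5 of 7 mitochondrial mRNAs cross at least 1 of them.

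Complex I takes up electrons from NADH. Its 7 nuclear core subunits, which carry the flavin and the iron-sulfur clusters (Ndufs1 and Ndufv1 among them), had log2 fold changes from -0.13 to 0.02, with all 7 intervals between -0.51 and 0.40. Ndufv1, which binds the flavin, was at 112 ± 19.0 CPM in sham controls and 113 ± 12.3 CPM in IUGR (SD, n = 4 each). The 29 accessory subunits, with Ndufa4 counted among them by its name, ran from -0.23 to 0.15 with a median of -0.03.

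Ndufa13 had the lowest p of complex I apart from Ndufa4l2, and its protein, also called GRIM-19, is an accessory subunit. It was at 70.3 (T1-1), 94.2 (T1-3), 94.2 (T1-4) and 96.5 CPM (T1-5) in IUGR and at 96.9 (S1-4), 94.5 (S1-6), 134 (S3-1) and 82.8 CPM (S3-4) in sham controls. One low IUGR library and 1 high sham library lay apart, and the other values overlapped. This gave a log2 fold change of -0.20 with an SE of 0.17 (edgeR, adjusted p = 0.93). Ndufa12, a small accessory subunit, had a log2 fold change of -0.18 (SE 0.19), with sham controls at 56.0 ± 10.3 CPM and IUGR at 49.5 ± 11.2 CPM (SD, n = 4 each). Without S3-1 the log2 fold change was -0.04 for Ndufa13 and -0.05 for Ndufa12, and without T1-1 it was -0.10 and -0.06.

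Ndufa4 had the highest CPM among genes of this naming family, although its protein is now counted as a subunit of complex IV. By its name it stays in the counts and medians of complex I here. It was at 127 (T1-1), 170.4 (T1-3), 161 (T1-4) and 247 CPM (T1-5) in IUGR and at 156 (S1-4), 187 (S1-6), 261 (S3-1) and 179 CPM (S3-4) in sham controls. The groups overlapped over most of their range, and T1-1 was the lowest library and S3-1 the highest. Its log2 fold change was -0.15 (SE 0.22), with an interval from -0.64 to 0.33.

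Complex II feeds electrons from succinate. Its catalytic flavoprotein Sdha was at 226 (T1-1), 217 (T1-3), 223 (T1-4) and 174 CPM (T1-5) in IUGR and at 201 (S1-4), 216 (S1-6), 142 (S3-1) and 217 CPM (S3-4) in sham controls. S3-1 and T1-5 were the 2 lowest libraries, and the other 6 lay close together in both groups. For Sdha the log2 fold change was 0.12 (SE 0.16; interval -0.23 to 0.47). The iron-sulfur subunit Sdhb differed by 0.00 on the log2 scale (interval -0.27 to 0.27), and the membrane anchors Sdhc and Sdhd by 0.06 (SE 0.13) and -0.07 (SE 0.16).

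In complex III, Uqcrc2, a core subunit, had the highest CPM. It was at 196 (T1-1), 223 (T1-3), 279.8 (T1-4) and 291 CPM (T1-5) in IUGR and at 213 (S1-4), 215 (S1-6), 349 (S3-1) and 258 CPM (S3-4) in sham controls. S3-1 was the highest and T1-1 the lowest library, and the remaining libraries of the groups overlapped. Uqcrc2 had a log2 fold change of -0.06 (SE 0.19). Its partner Uqcrc1 had a log2 fold change of 0.04 (SE 0.12), the Rieske iron-sulfur protein Uqcrfs1 0.05 (SE 0.14), and the small subunits Uqcrb and Uqcr11 0.12 (SE 0.23) and -0.07 (SE 0.20). The 8 genes of complex III had a median of -0.03.

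Among the main nuclear subunits of complex IV, Cox5a had the lowest p; its protein binds near the matrix side of the enzyme. It was at 108 (T1-1), 97.3 (T1-3), 102 (T1-4) and 98.8 CPM (T1-5) in IUGR and at 82.2 (S1-4), 91.0 (S1-6), 103 (S3-1) and 96.9 CPM (S3-4) in sham controls. The 4 IUGR libraries lay above 3 of the sham libraries, and S3-1 exceeded all IUGR libraries but T1-1. The resulting log2 fold change was 0.12 (SE 0.11; edgeR, adjusted p = 0.962). Cox4i1, the subunit outside the naming rule, had a log2 fold change of -0.09 (SE 0.14), with sham controls at 263 ± 47.6 CPM and IUGR at 247 ± 7.95 CPM (SD, n = 4 each). Cox8a and Cox7c, small membrane subunits, had log2 fold changes of -0.16 (SE 0.19) and 0.15 (SE 0.22), and that of Cox8a was -0.02 without T1-1 and -0.04 without S3-1. The 10 genes of complex IV other than Cox6b2 and Cox7a1 had a median of -0.01.

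In complex V, the catalytic β subunit Atp5b had the most counts of any nuclear member. It was at 1289 (T1-1), 1059 (T1-3), 1139 (T1-4) and 1143 CPM (T1-5) in IUGR and at 1253 (S1-4), 1113 (S1-6), 1249.7 (S3-1) and 1107 CPM (S3-4) in sham controls. The libraries of both groups were interleaved, and the highest and the lowest of the 8 were both IUGR. Its log2 fold change was -0.03 (SE 0.13), with an interval from -0.31 to 0.25. The 5 genes of the F1 head (Atp5a1, Atp5b, Atp5c1, Atp5d and Atp5e) had log2 fold changes from -0.08 to 0.05. The 8 tested genes of the membrane part and peripheral stalk ran from -0.17 for Atp5h, a stalk subunit, to 0.09 for Atp5g3, which encodes the subunit c of the rotating ring. Atp5s, named as coupling factor B and not a core subunit, had a log2 fold change of -0.23 (SE 0.20; edgeR, adjusted p = 0.949).

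Several subunits exist as a common and a tissue-specific or oxygen-regulated isoform, and among the nuclear members the largest fitted differences fell among these scarce forms. Cox6b2 is the testis-enriched form of Cox6b1. It was at 1.38 (T1-1), 3.81 (T1-3), 2.62 (T1-4) and 1.21 CPM (T1-5) in IUGR and at 4.63 (S1-4), 5.57 (S1-6), 2.58 (S3-1) and 7.09 CPM (S3-4) in sham controls. The sham libraries S1-4, S1-6 and S3-4 lay above every IUGR library, while S3-1 lay within the IUGR range. The log2 fold change was -1.13 (SE 0.42), with an unadjusted p of 0.023 and an adjusted p of 0.308 by edgeR, and an exact two-sided permutation test over the samples gave p = 0.0857, where the design allows no p under 0.0286. Cox6b2 made up 0.651% to 2.23% of the summed CPM of Cox6b1 and Cox6b2 in IUGR and 1.11% to 4.42% in sham controls. For the main form Cox6b1 the log2 fold change was -0.03 (SE 0.18), with 182 ± 33.5 CPM in sham controls against 179 ± 39.2 CPM in IUGR (SD, n = 4 each). Cox6b2 lies on chromosome 7 of GRCm38, at positions 4751792 to 4753094 of the minus strand, and its libraries held 17 to 104 counts.

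Cox7a1 is the heart and skeletal muscle form of Cox7a2. It was at 0.580 (T1-1), 0.834 (T1-3), 0.328 (T1-4) and 0.714 CPM (T1-5) in IUGR and at 1.31 (S1-4), 0.901 (S1-6), 2.01 (S3-1) and 0.750 CPM (S3-4) in sham controls. Only T1-3 in the IUGR group lay above the lowest sham library. The log2 fold change was -0.99 (SE 0.42; edgeR, unadjusted p = 0.0392 and adjusted p = 0.397), and the exact two-sided permutation p was 0.0571. With 4 to 28 counts per library the values rest on few reads, and Cox7a1 gave at most 0.928% of the summed CPM of Cox7a1 and Cox7a2 in any library. The 10 tested muscle markers were fitted higher in IUGR with none called, as given above, and Cox7a1 was fitted lower. What part muscle has in the Cox7a1 values was not tested.

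Ndufa4l2, a relative of Ndufa4 known to be induced by hypoxia-inducible factor, had the highest fitted log2 fold change of the nuclear members. It was at 2.47 (T1-1), 3.51 (T1-3), 2.05 (T1-4) and 3.36 CPM (T1-5) in IUGR and at 2.97 (S1-4), 1.48 (S1-6), 2.22 (S3-1) and 1.57 CPM (S3-4) in sham controls. T1-3 and T1-5 exceeded all sham libraries, and S1-4 exceeded T1-1 and T1-4. The log2 fold change was 0.47 (SE 0.31; edgeR, adjusted p = 0.774), with an interval from -0.22 to 1.17 that includes both no change and a doubling. Cox4i2, the oxygen-responsive form of Cox4i1, had a log2 fold change of 0.46 (SE 0.37; edgeR, adjusted p = 0.892), with sham controls at 0.824 ± 0.256 CPM and IUGR at 1.12 ± 0.356 CPM (SD, n = 4 each).

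The 3 genes for subunit c of ATP synthase encode the same mature protein. Atp5g3 was the main one, with sham controls at 140.4 ± 15.2 CPM and IUGR at 149 ± 3.74 CPM (SD, n = 4 each), and Atp5g1 gave 6.60% to 9.30% of the summed CPM of Atp5g1 and Atp5g3. Atp5g2 held a mean of 6.63 counts per library and was not tested. Of the other isoform genes, Cox6a1 had a log2 fold change of 0.02 (SE 0.14), Cox7a2 0.04 (SE 0.23) and Cox7a2l, a factor that joins complexes III and IV, -0.04 (SE 0.19).

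**Figure D2:**
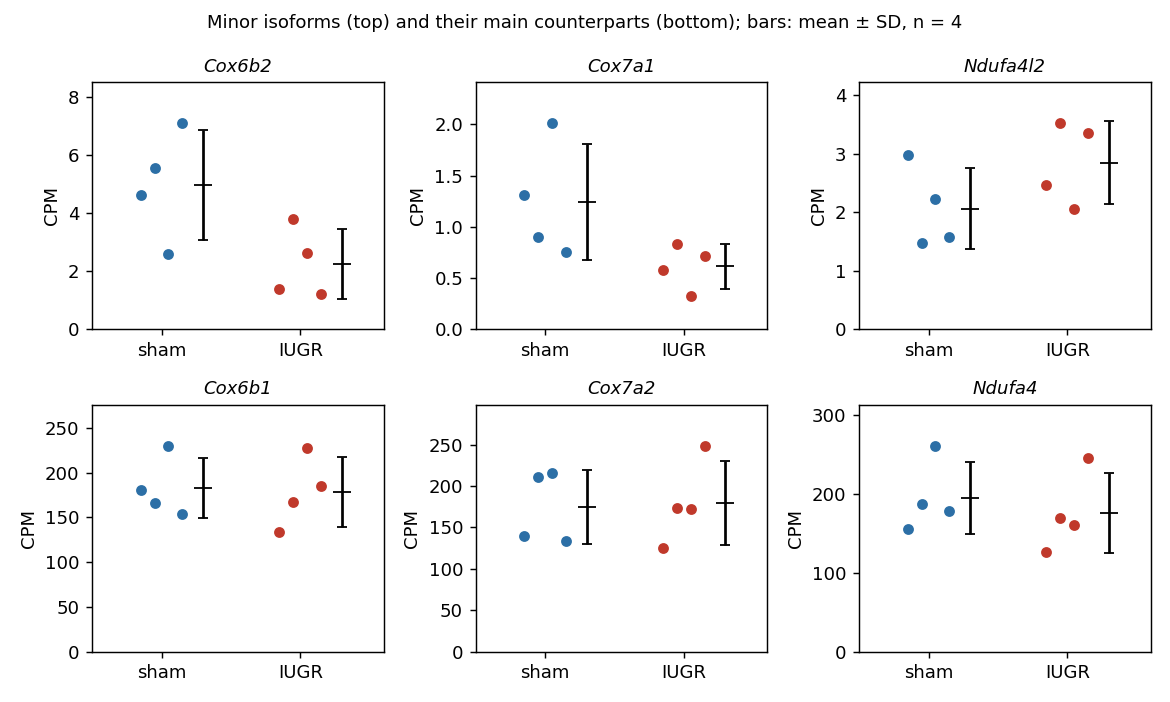
CPM (vertical axes, each from 0) of 3 minor isoforms in the upper row and their main counterparts in the lower row; each point is 1 library, blue for sham controls and red for IUGR, with libraries in the order of their names, and bars give mean ± SD (n = 4). Cox6b2 and Cox7a1 were mostly lower in IUGR with overlap between the groups, and the main forms lay at 125 to 261 CPM in both groups.

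The mitochondrial mRNAs varied more between libraries than between groups. mt-Co1 was at 3034 (T1-1), 4769.7 (T1-3), 5609.6 (T1-4) and 5274 CPM (T1-5) in IUGR and at 4013 (S1-4), 4385 (S1-6), 5196 (S3-1) and 4835 CPM (S3-4) in sham controls. The groups overlapped with T1-1 the lowest library, and the log2 fold change was 0.02 (SE 0.20; interval -0.43 to 0.47). mt-Nd1, a membrane subunit of complex I, was at 705 (T1-1), 1872 (T1-3), 2364 (T1-4) and 949 CPM (T1-5) in IUGR and at 948 (S1-4), 2094 (S1-6), 862 (S3-1) and 2575 CPM (S3-4) in sham controls. Here 2 libraries of each group were high and 2 low, and the log2 fold change was -0.14 (SE 0.44; interval -1.12 to 0.85).

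The low libraries of mt-Nd1 were those with little mt-Rnr1. mt-Cytb, the subunit of complex III from the mitochondrial genome, was at 1717 to 2709 CPM in the 4 libraries with much mt-Rnr1 and at 565 to 751 CPM in the other 4, a ratio of means of 3.41. The ratio was 2.57 for mt-Nd1, 3.99 for mt-Nd2, 3.61 for mt-Nd4 and 2.46 for mt-Nd5, and in each of these 5 mRNAs all 4 libraries with much mt-Rnr1 lay above the other 4, as they did for 3.54% of all genes (2.27% lay below). For mt-Co1 the ratio was 1.12 and the libraries overlapped, and they overlapped also for mt-Nd6, the mRNA of the opposite strand, and for the scarce mt-Nd3. Within a library, the CPM of mt-Nd1 was 0.392 to 0.533 of that of mt-Co1 where mt-Rnr1 was high and 0.166 to 0.236 where it was low. These 4 and 4 libraries are not groups of the study, each holds 2 IUGR and 2 sham libraries, and what part the removal of ribosomal RNA has in this difference was not tested.

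**Figure D3:**
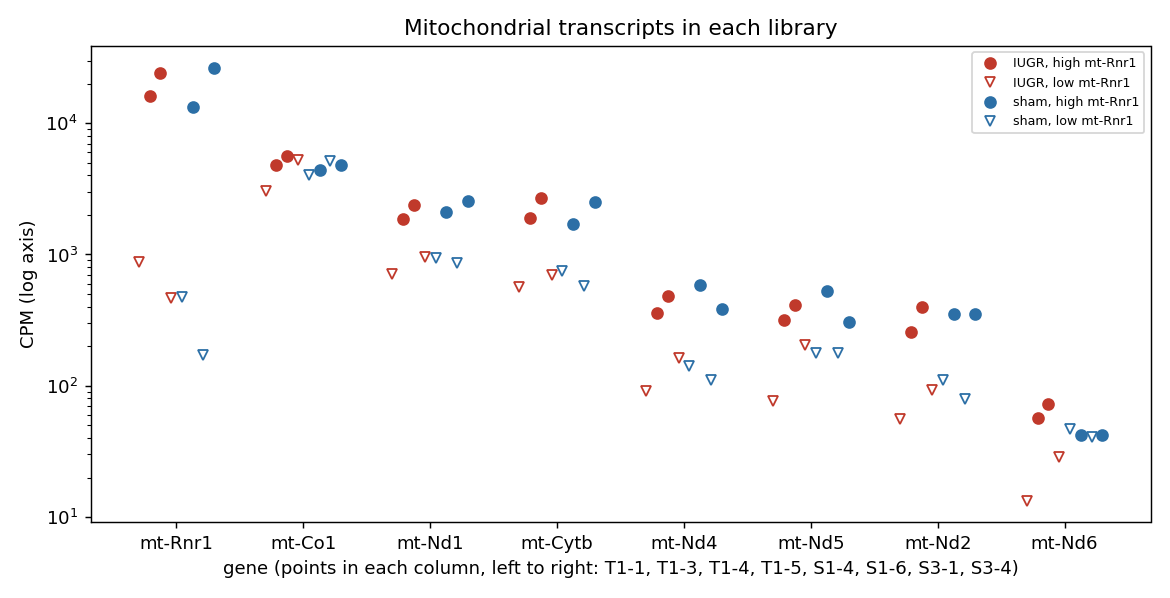
CPM (log axis) of mt-Rnr1 and the 7 tested mitochondrial mRNAs in each of the 8 libraries; red marks IUGR, blue sham, filled circles the libraries with high mt-Rnr1 and open triangles those with low mt-Rnr1. Circles lie above triangles for mt-Nd1, mt-Cytb, mt-Nd4, mt-Nd5 and mt-Nd2, whereas both mix for mt-Co1 and mt-Nd6, and T1-1 is the lowest library for all 7 mRNAs.

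Against this spread the group difference of the mitochondrial mRNAs had wide intervals. The log2 fold changes of the 7 tested mRNAs ran from -0.23 for mt-Nd5 to 0.08 for mt-Cytb, with a median of -0.14, and their SEs from 0.20 to 0.63. Intervals stayed within -1 and 1 for mt-Co1 and mt-Nd6 only. For mt-Nd2, sham controls were at 224 ± 149 CPM and IUGR hippocampi at 200.5 ± 157 CPM, and for mt-Nd4 at 306 ± 224 CPM and 275 ± 181 CPM (SD, n = 4 each). With the log2 CPM of mt-Rnr1 as a covariate, a fit chosen after seeing the data, the median was -0.27 and no member was called (1.05% of all genes), with 1 at an unadjusted p under 0.05 (11.3% of all genes).

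The mitochondrial tRNAs lie between the mRNAs on the same long transcripts and are cut out to release them. Those shown here are the tRNA with the largest difference between libraries rich and poor in mt-Rnr1 and the tRNA with the largest fitted difference between IUGR and sham, as annotated by GENCODE M21 on GRCm38. mt-Tl1, a leucine tRNA directly before mt-Nd1, lies at chrM:2676-2750 on the plus strand, and mt-Tq, the glutamine tRNA, at chrM:3772-3842 on the minus strand. Both are written 5′ to 3′ as the RNA strand in DNA letters.
mt-Tl1: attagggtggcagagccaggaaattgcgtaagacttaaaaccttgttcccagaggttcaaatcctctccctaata
mt-Tq: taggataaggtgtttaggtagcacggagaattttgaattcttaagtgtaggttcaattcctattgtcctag

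mt-Tl1 was at 1.31 (T1-1), 8.34 (T1-3), 11.6 (T1-4) and 1.00 CPM (T1-5) in IUGR and at 1.40 (S1-4), 8.60 (S1-6), 2.22 (S3-1) and 14.0 CPM (S3-4) in sham controls. The 4 libraries with much mt-Rnr1 were again above the other 4, at 7.17 times their mean, and the log2 fold change of IUGR against sham was -0.25 (SE 0.85). mt-Tq was at 0.145 (T1-1), 0.238 (T1-3), 0.492 (T1-4) and 1.07 CPM (T1-5) in IUGR and at 3.67 (S1-4), 0.492 (S1-6), 3.23 (S3-1) and 0.205 CPM (S3-4) in sham controls. The sham libraries S1-4 and S3-1, both poor in mt-Rnr1, stood above all others and the remaining 6 overlapped. Its log2 fold change was -1.95 (SE 0.87; edgeR, unadjusted p = 0.0488 and adjusted p = 0.441), the exact two-sided permutation p was 0.286, and its libraries held 2 to 45 counts. It was -2.69 without T1-5 and -1.43 without S1-4, and limma-voom gave -1.42 with an unadjusted p of 0.178. mt-Tw, the tryptophan tRNA, had a log2 fold change of 0.85 (SE 0.58; edgeR, adjusted p = 0.802), which was 0.38 without T1-3, and the median of the 7 tested tRNAs was -0.21. The mature tRNAs are shorter than the inserts that the library protocol describes. Some of these genes overlap at their ends only. On the same strand, mt-Ti starts at 3706 where mt-Nd1 ends at 3707, and mt-Tw starts at 4950 where mt-Nd2 ends at 4951. On the opposite strand, mt-Tq reaches to 3772 where mt-Ti ends at 3774. Which RNAs gave these counts was not tested.

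The nuclear genes varied together between libraries of the same group. Each gene's log2 CPM was set against its own mean over the 8 libraries, and the median was taken over the 76 nuclear members. In the IUGR group this median was -0.31 (T1-1), -0.02 (T1-3), 0.00 (T1-4) and 0.18 (T1-5), and in the sham group -0.04 (S1-4), -0.05 (S1-6), 0.41 (S3-1) and -0.20 (S3-4). The lowest library was thus IUGR and the highest sham, while the other 3 IUGR libraries lay above the other 3 sham libraries. The medians over all genes tested spanned only 0.11 between libraries. T1-1 was the lowest of the 8 libraries for 41 of the 76 nuclear members (53.9%; 12.8% of all genes), S3-1 the highest for 42 (55.3%; 17.3% of all genes), and both held for 24 (31.6%; 3.85% of all genes).

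**Figure D4:**
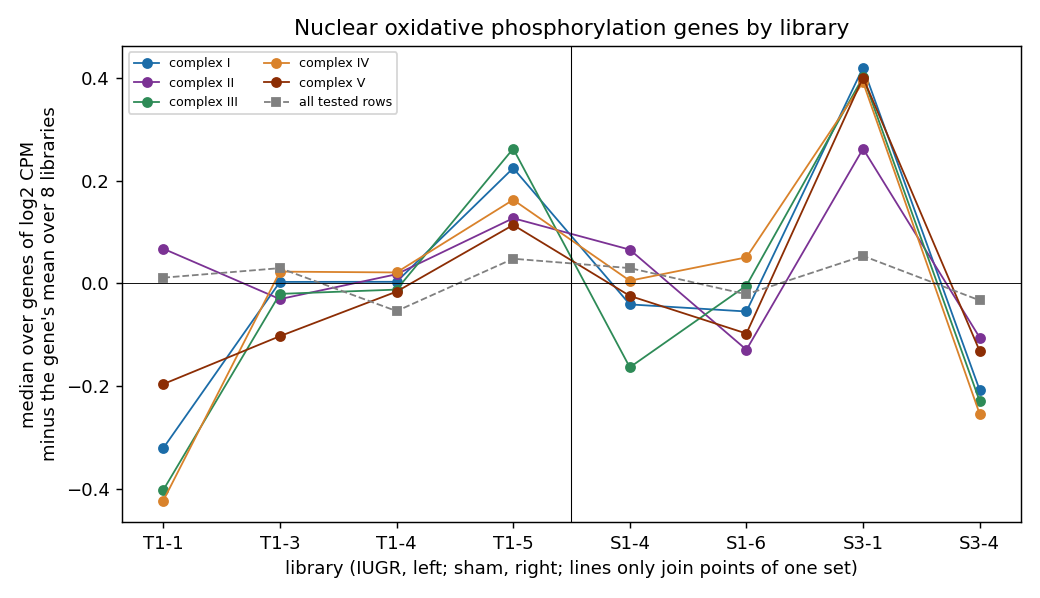
Median over genes of log2 CPM minus each gene's mean (vertical axis) in the 8 libraries, IUGR on the left and sham on the right, for the nuclear genes of each complex and for all tested genes (grey squares). Complexes I, III, IV and V run from -0.20 to -0.42 in T1-1 and from 0.39 to 0.42 in S3-1, complex II moves less, and all genes stay near 0.

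The complexes did not all follow this order alike. In T1-1 the median was -0.40 for complex III, -0.42 for complex IV, -0.32 for complex I, -0.20 for complex V and 0.07 for complex II. The F1 head of complex V was at 0.14 in T1-1 while the membrane part and stalk was at -0.22. The nuclear members with their highest level in T1-1 were 7, namely Atp5a1, Atp5b, Atp5g1, Cox5a, Ndufa10, Sdha and Uqcrc1. Of the 76 tested nuclear members, Sdha alone had its lowest level in S3-1.

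Other genes were compared with this pattern by their length. The 38 nuclear members with an annotated exon length of at most 1652 bases had a median of -0.38 in T1-1, against -0.18 for the 38 longer ones, and 0.42 against 0.32 in S3-1. Across the 76 genes the Spearman correlation of exon length with the deviation was 0.355 in T1-1 and -0.255 in S3-1, but also 0.304 in S3-4 and -0.244 in T1-3, whose median was near 0, and it lay between -0.192 and 0.124 in the other 4 libraries; it describes genes that share these libraries. The 106 genes of cytosolic ribosomal proteins were at -0.13 in T1-1 and 0.40 in S3-1, and 174 other protein-coding genes with exon lengths over 800 and up to 1200 bases were at -0.16 and 0.31. Genes over 1200 and up to 2000 bases were at -0.08 and 0.24, genes over 2000 and up to 4000 bases at 0.02 and 0.13, and the 91 shortest, up to 800 bases, at -0.11 and 0.23, while 6852 genes longer than 4000 bases were at 0.07 and -0.05. The part of length, RNA quality or cell composition in the pattern was not tested.

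Leaving out T1-1 or S3-1 turned the sign of the small median difference between the groups. These libraries were picked as the lowest and the highest for the same genes. Without T1-1 the median log2 fold change of the nuclear members was 0.04, with 22 of 76 fitted lower in IUGR, and without S3-1 it was 0.09 with 15 of 76 fitted lower. Without T1-5 it was -0.09 with 54 of 76 fitted lower, and without S3-4 it was -0.06 with 57 of 76 fitted lower. It was 0.09 among the 4 libraries with high mt-Rnr1 alone and -0.12 among the 4 with low mt-Rnr1, fits that called none of all genes, and 3 and 4 members respectively had an unadjusted p under 0.05 (6.52% and 7.17% of all genes). Leaving out any single library called no member, against 0.301% (without S1-4) to 1.97% (without T1-5) of all genes.

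Promoters were searched for 3 strings that are bound by regulators of respiratory genes: GCGCATGCGC for NRF1, CCGGAAGT for ETS factors such as GABPA, and AAGATGGC for YY1, on both strands, in the 300 bases from 250 before to 50 after the start of a gene (RefSeq, GRCm38.p6). A promoter was matched for 66 of the 77 nuclear members. The YY1 string stood in 11 (16.7%), against 4.72% of 11513 protein-coding genes of the table, and the NRF1 string in 5 (7.58%), against 2.13%. The ETS string stood in 5 (7.58%; 8.09% of the protein-coding genes) and the TATA string TATAAA in 4 (6.06%; 9.03%). One of the first 3 strings stood in 21 of 66 (31.8%; 14.2%), and no string contains another. The members with the NRF1 string were Ndufa11, Uqcrc1, Cox6a1, Atp5g2 and Atp5k.

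The sequences below show 1 promoter for each of these strings, from a core subunit of complex III (Uqcrc1, chr9:108936398-108936697, plus strand), its hinge subunit (Uqcrh, chr4:116075021-116075320, minus strand) and the stalk subunit b of ATP synthase (Atp5f1, chr3:105959214-105959513, minus strand). They are written 5′ to 3′ on the strand of the gene, and capitals mark the NRF1 string in Uqcrc1 and the reverse complements of the ETS string in Uqcrh and of the YY1 string in Atp5f1.
Uqcrc1: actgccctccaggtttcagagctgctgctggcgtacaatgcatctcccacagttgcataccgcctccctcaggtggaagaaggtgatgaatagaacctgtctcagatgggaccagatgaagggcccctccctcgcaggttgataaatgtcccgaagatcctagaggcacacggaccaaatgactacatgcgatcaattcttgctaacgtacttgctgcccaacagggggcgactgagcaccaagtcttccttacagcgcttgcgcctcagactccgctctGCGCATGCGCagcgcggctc
Uqcrh: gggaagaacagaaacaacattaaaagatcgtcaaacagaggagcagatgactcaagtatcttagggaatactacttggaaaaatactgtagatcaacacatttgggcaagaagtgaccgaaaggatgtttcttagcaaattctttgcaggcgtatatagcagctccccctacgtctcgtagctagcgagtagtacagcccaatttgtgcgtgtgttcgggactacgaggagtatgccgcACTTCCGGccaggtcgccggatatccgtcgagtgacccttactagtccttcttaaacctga
Atp5f1: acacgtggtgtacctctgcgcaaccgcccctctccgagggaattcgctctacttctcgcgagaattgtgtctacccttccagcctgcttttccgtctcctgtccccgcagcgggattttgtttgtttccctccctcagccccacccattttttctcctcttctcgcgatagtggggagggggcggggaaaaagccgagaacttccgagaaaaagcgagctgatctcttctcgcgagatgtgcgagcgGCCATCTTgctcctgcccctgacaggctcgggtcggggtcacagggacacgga

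The regulators that read these strings did not pass the test. Nrf1 had a log2 fold change of -0.08 (SE 0.14), Gabpa 0.01 (SE 0.12), Yy1 -0.03 (SE 0.10) and the coactivator Ppargc1a -0.09 (SE 0.26). Uqcrc1, Uqcrh and Atp5f1 had log2 fold changes of 0.04 (SE 0.12), -0.04 (SE 0.22) and -0.04 (SE 0.17). A string in these windows is a description and not a bound site.

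Other genes that serve the respiratory chain were counted in the same test, in which 1.36% of all genes were called. None was called among 14 genes of electron carriers and ubiquinone synthesis (median log2 fold change -0.05), 46 assembly factors (0.03), 29 genes that copy and express the mitochondrial genome (-0.04), 13 regulators of mitochondrial biogenesis (-0.06), 18 enzymes of the citric acid cycle (-0.00) or 16 genes of mitochondrial quality control (0.01). No gene of these 6 lists had an unadjusted p under 0.05, which 11.2% of all genes had. Tfam, which packages and transcribes mitochondrial DNA, had a log2 fold change of -0.07 (SE 0.14), and Tfb1m, a methyltransferase of mitochondrial ribosomal RNA, 0.32 (SE 0.18; edgeR, adjusted p = 0.632). Perm1, a muscle regulator of respiratory genes, had a log2 fold change of -0.47 (SE 0.33), and Tmem126b, an assembly factor of complex I, 0.22 (SE 0.16).

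Some members share sequence with copies elsewhere, so their counts could be divided or joined by the authors' alignment. Of the 77 nuclear members, 24 matched a transcript of another gene at 95% identity or more over at least 100 bases, and for Ndufs3 and Ndufb11 the match covered over 50% of the transcript (75.7% and 50.2%). Of the 8 mitochondrial mRNAs, 5 had such a nuclear copy: the pseudogene Gm13340 matched mt-Co1 over 100% of its length at 97.6% identity, Gm28438 matched mt-Nd3 over 99.1%, Gm28439 matched mt-Nd4 over 63.6% at 100% identity, Gm4076 matched mt-Nd5 over 52.3%, and Gm13339 matched mt-Nd2 over 49.1%. The levels of these 5 mRNAs are therefore uncertain, and so are the low counts of mt-Nd3 (mean 8.63). Of the nuclear members, 20 overlap another gene of the count table by annotated position, 14 of them in complex I. Annotated genes outside the count table were not searched. mt-Nd5 and mt-Nd6 overlap on opposite strands. The library kit keeps strand, but the strand setting of the counting is not given in the sources used here.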

How the data were processed

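Total RNA of 8 hippocampi (4 IUGR, 4 sham) was sequenced as single reads with a stranded kit after removal of ribosomal RNA. The authors aligned the reads (Novoalign 2.8 and mm10 per the submitters' processing notes) and deposited raw counts per gene without normalization. Gene positions, lengths and biotypes came from GENCODE M21 (GRCm38), which held 16124 of the 16397 identifiers and all 97 members. Genes of any biotype with a mean count of at least 10 were tested, and mt-Rnr1 was left out of library sizes and of the test. The comparison used edgeR 4.0.16 under R 4.3.3 (TMM factors, quasi-likelihood test, Benjamini-Hochberg adjustment across 14961 genes, with 0.05 as the threshold on the adjusted p). Log2 fold changes are IUGR against sham, and log2 CPM used a prior count of 2. Alternatives were DESeq2 1.42.0, limma-voom (limma 3.58.1), other scalings, other filters, single libraries left out, and sham libraries of 1 prefix. Copies were sought with blastn 2.17.0. The scripts were tested on simulated data. Precision is limited by 4 samples per group.

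The members, lists, roles and alternatives were chosen with earlier results of these data known. Genes given with values were the mitochondrial mRNAs, isoform genes, and in each complex the 3 with the lowest p and the one with the highest CPM. Those beyond this rule (core subunits, regulators, tRNAs and copies) were chosen after their values were seen. No comparison columns of the authors were used. Values of some single genes are not reported here.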

Additional observations from a re-analysis of the deposited data

Results flagged for a closer look

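In each group of 4 libraries, a value was marked where its lowest or highest library stood off from the nearest other by more than Dixon's critical share of the group's range, which chance gives in about 1 of 20 groups. The 90 tested members and 4 summed measures gave 188 groups, of which 11 were marked, a number near that chance share. In the sham group S3-1 was high for 7 genes. Atp5c1 was at 369 CPM there against 240 to 258 in the other 3 sham libraries, Atp5k at 115 against 68.6 to 76.0, and Atp5o at 254 against 176 to 187. Cox7c was at 18.4 CPM against 13.0 to 13.1, Ndufb3 at 45.3 against 26.3 to 29.3, Ndufb9 at 145 against 87.6 to 96.5, and Ndufs8 at 71.1 against 47.0 to 49.0. In the IUGR group T1-1 was low for Ndufa11 (35.0 CPM against 52.6 to 54.5), Ndufa13 (70.3 against 94.2 to 96.5) and Uqcrq (28.4 against 49.2 to 51.8), and T1-3 was low for Ndufa9 (78.4 against 88.0 to 89.7). These members share the libraries T1-1 and S3-1, which were also the lowest and the highest for most nuclear members, so the marks are not independent.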

How the results depend on the processing

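No member was called under any of the alternatives, by edgeR, DESeq2 or limma-voom, against 0% to 3.91% of all genes. An unadjusted p under 0.05 was found for 0 to 4 members and for 6.52% to 11.8% of all genes. The number of all genes called moved more: 585 with DESeq2, 326 with limma-voom, 97 with a mean count of at least 50, 0 with the S1 sham libraries alone (edgeR; 1116 at an unadjusted p under 0.05) and 2 with the S3 sham libraries alone, and 45 (without S1-4) to 294 (without T1-5) with a library left out; without T1-1, T1-4, S3-1 and S3-4 it was 71, 115, 104 and 67. In fits chosen after seeing the data it was 0 for the 4 libraries with high and 0 for the 4 with low mt-Rnr1 (edgeR; 975 and 1074 at an unadjusted p under 0.05). The sign of a small fitted log2 fold change turned with the libraries used. The cause was not tested, and no such value had passed the test. With the S1 sham libraries alone it was 0.038 for Ndufa4, 0.13 for Sdhd, 0.024 for Uqcr11, 0.21 for Uqcrc2, 0.041 for Cox6b1, 0.043 for Cox7a2l, 0.0064 for Atp5g1 and 0.14 for mt-Tl1. With the S3 sham libraries alone it was -0.092 for mt-Co1, -0.053 for mt-Cytb, 0.17 for mt-Nd4, 0.079 for mt-Nd5 and 0.048 for mt-Nd6. It was -0.011 for mt-Co1 with limma-voom and 0.0002 for mt-Nd6 with no filter. With 1 library left out at a time it ran for mt-Co1 from -0.080 to 0.19, mt-Cytb from -0.39 to 0.53, mt-Nd1 from -0.46 to 0.18, mt-Nd2 from -0.72 to 0.16, mt-Nd4 from -0.58 to 0.39, mt-Nd5 from -0.57 to 0.21, mt-Nd6 from -0.39 to 0.29, Ndufa4 from -0.36 to 0.019, Sdha from -0.0080 to 0.20, Sdhd from -0.15 to 0.054 and Uqcrb from -0.11 to 0.27. By the same measure it ran for Uqcr11 from -0.18 to 0.12, Uqcrc1 from -0.034 to 0.089, Uqcrc2 from -0.15 to 0.11, Cox6b1 from -0.17 to 0.099, Atp5b from -0.077 to 0.0009, Cox6a1 from -0.064 to 0.086, Cox7a2 from -0.16 to 0.18, Cox7a2l from -0.14 to 0.13, Atp5g1 from -0.14 to 0.012 and mt-Tl1 from -0.87 to 0.45. The median of the nuclear members ran from -0.09 (without T1-5) to 0.09 (without S3-1) and that of the mitochondrial mRNAs from -0.46 (without T1-4) to 0.16 (without S1-6). In the fits of libraries with high and with low mt-Rnr1, Cox6b2 was at -0.97 and -1.45, Cox7a1 at -0.46 and -1.35, and Ndufa4l2 at 0.87 and 0.18. With 1 library left out, Cox6b2 stayed between -1.55 and -0.90, Cox7a1 between -1.20 and -0.65 and Ndufa4l2 between 0.33 and 0.70, without passing the test. Other log2 fold changes kept their sign but moved by over 1.5 times. They ran from -0.29 to -0.05 for Ndufa12, -0.29 to -0.04 for Ndufa13, -0.28 to -0.02 for Cox8a, -0.25 to -0.06 for Atp5h, -0.32 to -0.11 for Atp5s, 0.07 to 0.17 for Cox5a, 0.02 to 0.14 for Atp5g3, 0.0004 to 0.14 for Sdhc and 0.38 to 1.17 for mt-Tw. mt-Tq stayed between -2.69 (without T1-5) and -1.43 (without S1-4). For Ndufa12, Ndufa13, Atp5h and Atp5s the value nearest 0 was that without S3-1, and for Cox8a and Sdhc that without T1-1. No paired analysis was possible because a number recurs within the sham group (S1-4 and S3-4) and nothing ties the numbers to pairs. Depth limits the tRNAs and minor isoforms, and copies in the nuclear genome limit mt-Co1, mt-Nd2, mt-Nd3, mt-Nd4 and mt-Nd5.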
